A study of Mus musculus with 8 samples.

Results

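The genes described here are 43 genes of DNA replication and mitosis, 25 that make or license new DNA and 18 that drive or guard chromosome segregation. They were chosen by symbol, and for each symbol the brightest row of the array was taken. Of the 43, 40 were found among the 19505 genes with a symbol on the array, 24 of the replication genes and 16 of the mitosis genes, each with a single row. *Mcm7*, *Ccnb1* and *Foxm1* were not analysed here.

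The samples were 8 arrays of cultured mouse muscle cells. Primary myoblasts came from the hindlimb muscles of mice of the genotype RhoA flox/flox, in which loxP sites flank exon 3 of *RhoA*, and were purified by FACS. They carried the Pax7-nGFP reporter of satellite cells. The cells were differentiated into myotubes, and at day 3 they were transduced for 48 h with an adenovirus. Ad-Cre-mCherry (Adeno CRE m-cherry in the labels) carries the Cre recombinase and the red fluorescent protein mCherry, and Ad-mCherry (Adeno m-cherry in the labels) carries mCherry alone. Each group had 4 arrays, numbered 1 to 4. The flox alleles and the reporter were shared by both groups, so the groups differ in the Cre protein as well as in the deletion it makes. No source used here gives the age of the mice, or says whether cultures came from separate mice or whether each array is a separate culture. The p-values therefore measure only the spread between these arrays. The comparison asks what changes in formed myotubes when *RhoA* is deleted.

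Replication genes act in S phase. Origins are licensed when Cdc6 and Cdt1 load the Mcm helicase ring, the helicase is switched on by Cdc45 and the GINS complex, and DNA polymerases then copy the strands while held by the sliding clamp Pcna. Mitosis genes act later, when cyclins A and B with Cdk1 drive the cell into division and the Aurora kinases, the spindle motors and the checkpoint kinases separate the chromosomes. Myoblasts divide, whereas their nuclei leave the cell cycle when they differentiate and fuse, and most genes of both groups are then kept low. In dividing cells E2F factors act on replication genes in late G1 and S phase, and complexes that bind the CHR element act on mitosis genes in G2.

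*RhoA* itself was lower with Cre. It read 9.99, 10.87, 10.87 and 10.23 in Ad-Cre-mCherry myotubes of replicates 1 to 4, against 11.16, 11.39, 11.08 and 11.39 in Ad-mCherry myotubes, all on the log2 scale. The groups did not overlap, and *RhoA* had a log2 fold change of -0.77 (limma, standard error 0.23, adjusted p = 0.729). No source used here says whether the probes of its row lie in the deleted exon. The array medians lay between 4.78 and 4.87. Of all 19505 genes, 0 passed an adjusted p of 0.05 in limma, which is 0% of those tested, and 1252 had an unadjusted p under 0.05. With the replicate number as a block, which lets each Ad-Cre-mCherry array be set against the Ad-mCherry array of the same number, 63 genes passed the adjusted threshold (0.323%), and no gene of the 40 was among them.

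Among the 40 genes, single replication genes stood far apart in both directions, whereas the mitosis genes lay mostly on the lower side in Ad-Cre-mCherry myotubes. *Pcna*, *Rrm2* and *Cdt1* were the furthest upward and *Prim1*, *Cdk1* and *Cdc45* the furthest downward. Of the 24 replication genes, 13 were higher and 11 lower in Ad-Cre-mCherry than in Ad-mCherry myotubes, with log2 fold changes of -1.04 to 1.24 and a median of 0.03. Of the 16 mitosis genes, 3 were higher and 13 lower, with log2 fold changes of -0.92 to 0.26 and a median of -0.19. Without the single array Ad-mCherry replicate 4, 7 of the 16 were higher and 9 lower, and the median was -0.07. Over all 19505 genes, 9726 were higher and 9694 lower, and the median was 0. No gene of the 40 passed the adjusted threshold, and their adjusted p ran between 0.729 and 0.993 in limma. In bulk cultures, fewer cells of a type and less RNA per cell cannot be told apart. The plot of fold changes shows each gene with its interval.

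**Figure D1:**
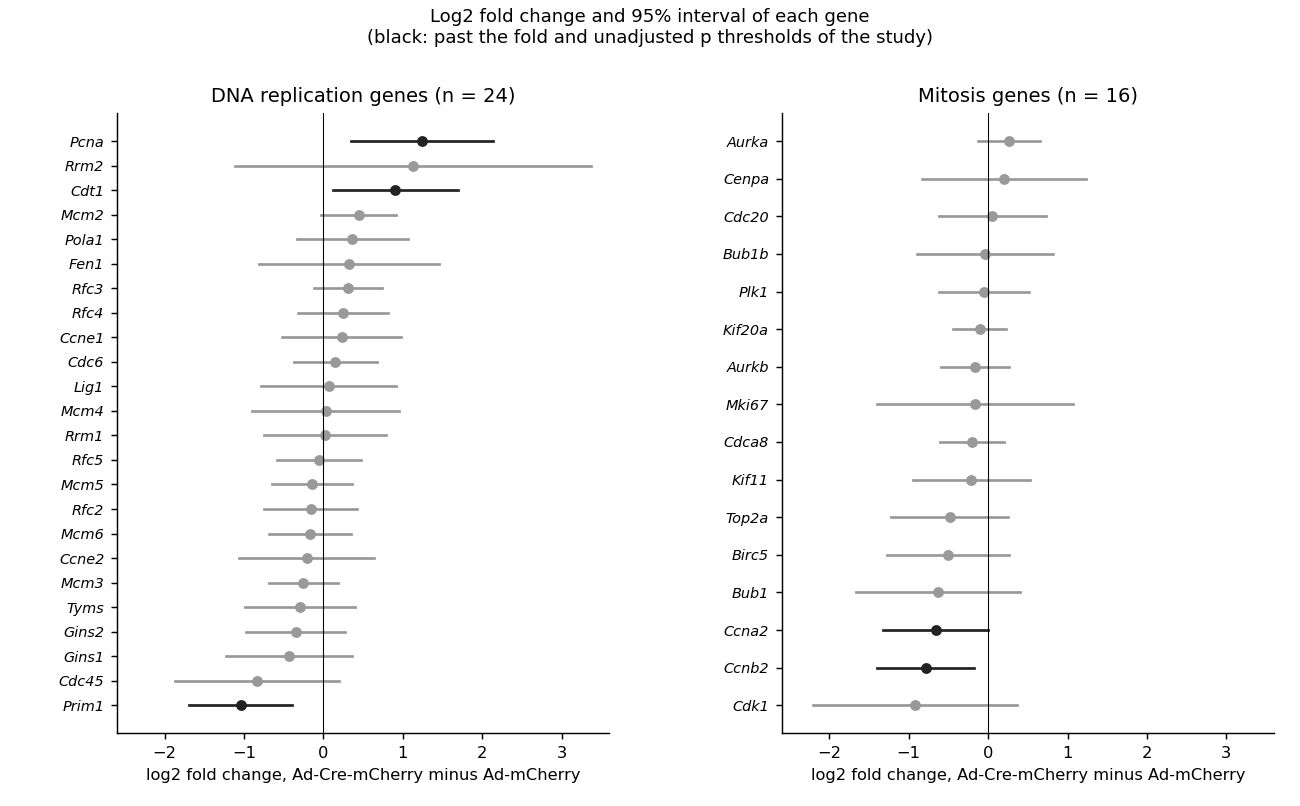
Log2 fold change, Ad-Cre-mCherry minus Ad-mCherry, of the 24 replication genes (left) and the 16 mitosis genes (right), with 95% intervals from limma over 4 arrays a group. Replication genes spread to both sides between -1.04 and 1.24, and 13 of 16 mitosis genes lie left of 0 (9 of 16 without Ad-mCherry replicate 4). Black marks the 5 genes past a fold change of 1.2 with p under 0.05 before adjustment.

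Array genes are counted in the study by a fold change of 1.2 or more and a p under 0.05. Taken here as the unadjusted p of limma, both thresholds were passed by 5 of the 40 genes. Over all genes 6.42% passed, 2.92% upward and 3.50% downward. The 5 were *Pcna* and *Cdt1*, higher in Ad-Cre-mCherry myotubes, and *Prim1*, *Ccna2* and *Ccnb2*, lower. With the replicate block 10 of the 40 passed, against 14.7% of all genes. Upward, where 6.54% of all genes passed, these were *Pcna*, *Cdt1* and *Rrm2*. Downward, where 8.20% of all genes passed, they were *Prim1*, *Cdc45*, *Ccna2*, *Ccnb2*, *Cdk1*, *Bub1* and *Birc5*. With 4 arrays a group, precision is limited. Without the block, the 95% interval reached a doubling or a halving for 9 of 24 replication genes and 8 of 16 mitosis genes. With the block the standard error was 0.23 against 0.57 for *Cdk1* and 0.32 against 0.99 for *Rrm2*, but 0.19 against 0.17 for *Aurka*.

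The promoters of 3 replication genes are shown because *Pcna* and *Prim1* had the largest fold changes in each direction and *Mcm6* holds the most E2F words. They are RefSeq sequences of build GRCm38.p6, each 250 bases on the strand of the gene, 220 before the annotated start and 30 after it. Capitals mark an E2F word (TTTCCCGC, TTTCGCGC, TTTGCCGC or TTTGGCGC), a CHR word (TTTGAA or TTCGAA, the second of which reads the same on both strands) or CCAAT, each on either strand. The window of *Pcna* is chr2:132253151-132253400 on the minus strand, that of *Prim1* is chr10:128014995-128015244 on the plus strand and that of *Mcm6* is chr1:128359676-128359925 on the minus strand.
Pcna: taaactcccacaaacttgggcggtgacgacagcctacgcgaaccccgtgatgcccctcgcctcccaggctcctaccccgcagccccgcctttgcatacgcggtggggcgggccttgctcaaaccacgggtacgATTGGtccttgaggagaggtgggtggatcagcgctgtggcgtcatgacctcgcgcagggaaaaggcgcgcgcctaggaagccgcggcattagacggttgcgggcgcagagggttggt
Prim1: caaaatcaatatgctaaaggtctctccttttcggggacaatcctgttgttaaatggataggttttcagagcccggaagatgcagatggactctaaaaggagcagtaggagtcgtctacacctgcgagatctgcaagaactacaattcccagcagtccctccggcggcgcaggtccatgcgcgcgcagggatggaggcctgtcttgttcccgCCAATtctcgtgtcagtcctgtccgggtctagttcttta
Mcm6: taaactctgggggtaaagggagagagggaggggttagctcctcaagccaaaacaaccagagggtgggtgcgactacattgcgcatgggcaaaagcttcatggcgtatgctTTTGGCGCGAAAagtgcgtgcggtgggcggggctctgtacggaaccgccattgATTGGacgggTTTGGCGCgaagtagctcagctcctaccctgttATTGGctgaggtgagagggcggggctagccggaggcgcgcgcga
In *Pcna* and *Prim1* the capitals mark a single CCAAT each, on opposite strands. In *Mcm6* the first run of capitals is 2 E2F words that overlap on opposite strands, and another E2F word stands between the CCAAT words.

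*Pcna*, the sliding clamp that tethers DNA polymerases to the template, was the only one of the 40 genes whose groups did not overlap. It read 15.68, 15.24, 13.76 and 14.21 in Ad-Cre-mCherry myotubes, against 13.18, 13.75, 13.38 and 13.63 in Ad-mCherry myotubes. Replicates 1 and 2 of the Ad-Cre-mCherry group were well above the rest, whereas replicate 3 lay only 0.01 above the highest Ad-mCherry array. The mean was 14.72 ± 0.89 with Ad-Cre-mCherry and 13.49 ± 0.26 with Ad-mCherry (SD, n = 4 arrays each), a 2.36-fold difference. On the log2 scale this is 1.24, with a standard error of 0.40 and a 95% interval of 0.35 to 2.13. The exact two-sided permutation test gave p = 0.0286, the smallest that 4 arrays against 4 allow. Any gene without overlap of the groups has this value, so it adds nothing to the lack of overlap. In limma the adjusted p was 0.729. Groups without overlap were seen for 3.75% of all genes, 1.82% higher and 1.93% lower with Cre. *Pcna* passed both thresholds in 11 of 12 settings that left out 1 array or both arrays of 1 number, but not without replicate 1, where the log2 fold change was 0.82. Of the subunits of the loader that places the clamp on DNA, *Rfc2*, *Rfc3*, *Rfc4* and *Rfc5*, none passed the thresholds. On the log2 scale *Rfc3* was 0.31 and *Rfc4* 0.24 higher in Ad-Cre-mCherry myotubes, and *Rfc2* and *Rfc5* had -0.16 and -0.06.

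*Prim1*, the catalytic subunit of the primase that makes the RNA primers of new strands, was lower. It read 7.73, 8.27, 7.88 and 7.91 in Ad-Cre-mCherry myotubes, against 9.65, 9.17, 8.90 and 8.24 in Ad-mCherry myotubes. The Ad-Cre-mCherry arrays lay close together, and the groups overlapped only where Ad-Cre-mCherry replicate 2 stood 0.03 above Ad-mCherry replicate 4. The mean was 7.95 ± 0.23 with Ad-Cre-mCherry and 8.99 ± 0.59 with Ad-mCherry (SD, n = 4 arrays each), and the log2 fold change was -1.04 (standard error 0.29, 95% interval -1.69 to -0.40). The exact permutation test gave p = 0.0571, and limma gave an adjusted p of 0.729, or 0.092 with the replicate block. *Prim1* passed both thresholds in all 12 settings that left out arrays, with log2 fold changes of -1.29 to -0.75. *Pola1*, the polymerase subunit that extends the primers, was 0.37 higher on the log2 scale (standard error 0.31) and did not pass.

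*Cdt1*, which loads the Mcm ring onto origins and is destroyed once S phase begins, was higher with Cre. It read 6.24, 5.34, 4.34 and 5.17 in Ad-Cre-mCherry myotubes, against 4.11, 4.48, 4.50 and 4.38 in Ad-mCherry myotubes. The Ad-mCherry arrays hardly differed, and of the Ad-Cre-mCherry arrays replicate 1 was highest and replicate 3 lay within the Ad-mCherry range. *Cdt1* had a log2 fold change of 0.90 (standard error 0.35, 95% interval 0.12 to 1.69, adjusted p = 0.748 in limma), and the exact permutation test gave p = 0.114. The call was lost without replicate 1, 2 or 4 of both groups, without Ad-Cre-mCherry replicate 1 or 2 and without Ad-mCherry replicate 1 or 4, where the log2 fold change lay between 0.50 and 0.94. The signal of *Cdt1* lay just below the median gene, so the gene dropped out when dim rows were left out. *Cdc6*, its partner in licensing, was 0.15 higher on the log2 scale and did not pass.

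*Mcm2*, a subunit of the helicase ring, read 7.0, 6.67, 6.60 and 6.68 in Ad-Cre-mCherry myotubes, against 6.08, 6.19, 6.07 and 6.83 in Ad-mCherry myotubes. All Ad-Cre-mCherry arrays stood above the first 3 Ad-mCherry arrays, and Ad-mCherry replicate 4 stood above 3 of the 4 Ad-Cre-mCherry arrays. *Mcm2* thus had a log2 fold change of 0.45 (standard error 0.21, adjusted p = 0.760 in limma, exact permutation p = 0.114). It did not pass both thresholds on these values, but it did after a second quantile normalization, at 0.51, without replicate 4 of both groups, at 0.64, and without Ad-mCherry replicate 4, at 0.62. Over the 12 settings that left out arrays it lay between 0.29 and 0.64. The other subunits of the ring that were measured, *Mcm3*, *Mcm4*, *Mcm5* and *Mcm6*, had log2 fold changes between -0.26 and 0.03 and none passed.

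*Cdc45*, which joins the ring to make the working helicase, was lower in each replicate number. It read 5.17, 5.21, 4.91 and 3.85 in Ad-Cre-mCherry myotubes, against 5.37, 6.90, 5.31 and 4.90 in Ad-mCherry myotubes. The low array was Ad-Cre-mCherry replicate 4 and the high array Ad-mCherry replicate 2, and the other 6 arrays lay close together. The difference of the means was -0.83 (standard error 0.46, adjusted p = 0.785 in limma, exact permutation p = 0.171), and it passed both thresholds only with the replicate block, where its adjusted p was 0.156. Leaving out Ad-mCherry replicate 2 gave -0.41, against -0.55 without both arrays numbered 2 and -0.52 without Ad-Cre-mCherry replicate 4. The GINS subunits, which work with Cdc45, had log2 fold changes of -0.43 for *Gins1* and -0.35 for *Gins2* and did not pass.

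*Rrm2*, the regulated subunit of ribonucleotide reductase, which makes the building blocks of DNA, differed most between arrays of a group, by its standard error. It read 12.98, 10.81, 7.96 and 9.41 in Ad-Cre-mCherry myotubes, against 10.55, 9.41, 7.69 and 8.98 in Ad-mCherry myotubes. Both groups had replicate 1 highest and replicate 3 lowest, and the groups overlapped widely. Within each replicate number the Ad-Cre-mCherry array was the higher one, by 2.43, 1.40, 0.27 and 0.43 on the log2 scale. The log2 fold change was 1.13 with a standard error of 0.99 and an interval of -1.11 to 3.38 (adjusted p = 0.859 in limma, exact permutation p = 0.371). It was 0.24 when Ad-Cre-mCherry replicate 1 was left out, 0.64 when Ad-mCherry replicate 3 was and 1.91 when Ad-Cre-mCherry replicate 3 was. With the replicate block the adjusted p was 0.142 and both thresholds were passed. *Rrm1*, the other subunit, had a log2 fold change of 0.02, and *Tyms*, the thymidylate synthase, one of -0.30.

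The remaining replication genes did not pass the thresholds. *Fen1*, the nuclease that trims Okazaki fragments, had a log2 fold change of 0.32, and *Lig1*, the ligase that joins them, one of 0.07. *Fen1* was highest on Ad-Cre-mCherry replicate 1 at 6.41 and next on Ad-mCherry replicate 4 at 5.76. The E cyclins, which open S phase, pointed to opposite sides, *Ccne1* at 0.23 and *Ccne2* at -0.21 on the log2 scale. The plot of levels by array draws 12 of the 13 genes given in full, all but *Aurka*.

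**Figure D2:**
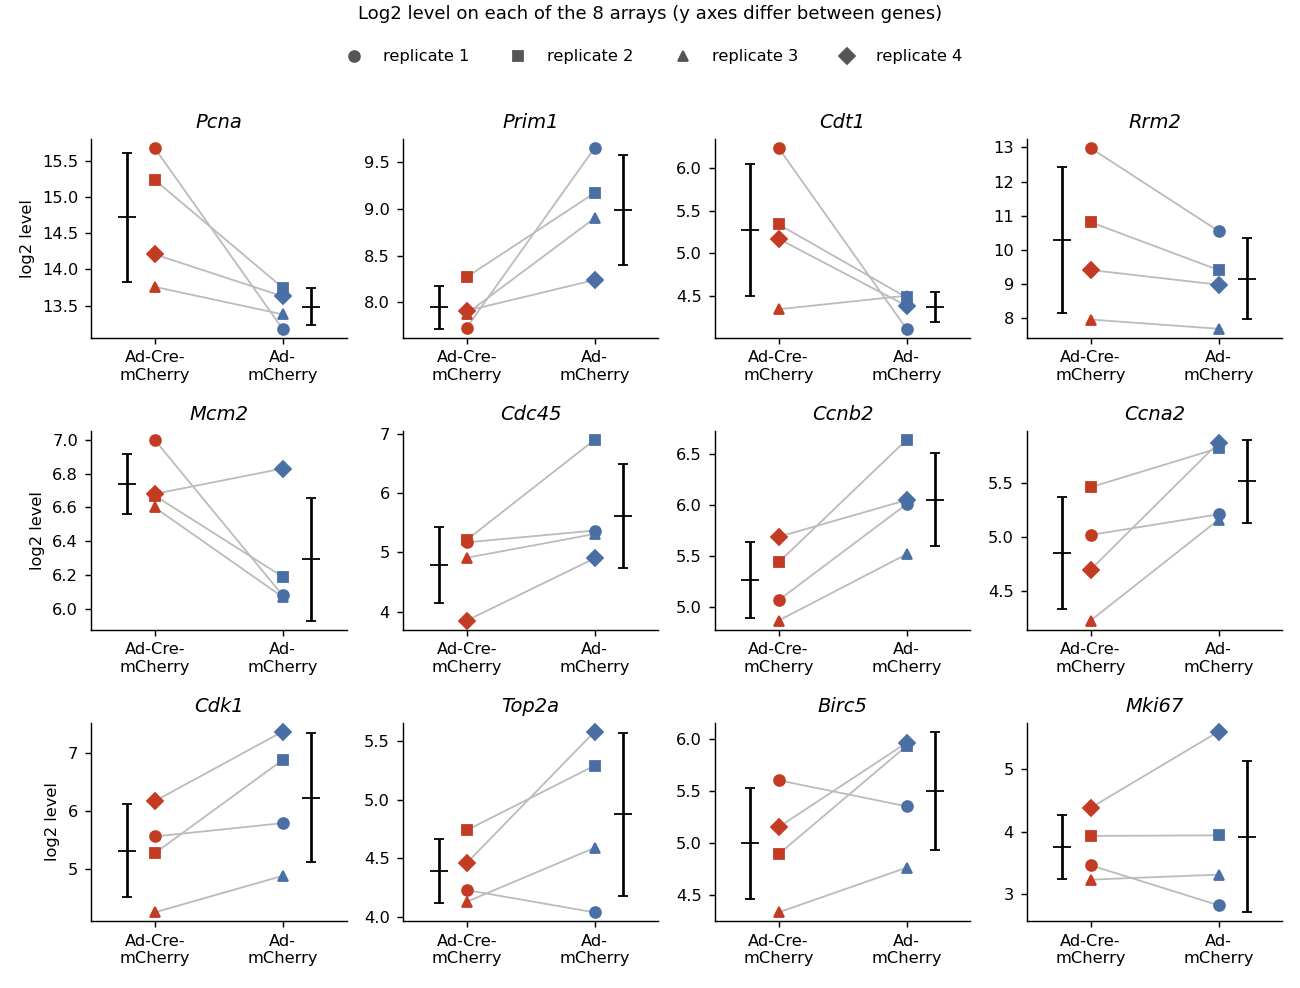
Log2 level of 12 genes on each of the 8 arrays, Ad-Cre-mCherry left and Ad-mCherry right. Lines join arrays of the same replicate number, and black bars give the mean and SD of 4 arrays. *Pcna* is the gene without overlap of the groups, *Prim1* overlaps by 0.03, and in *Rrm2* the replicate numbers keep the same order in both groups.

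Set beside these, the promoters of 3 mitosis genes are shown because *Cdk1* and *Ccnb2* lay furthest down among the mitosis genes with a promoter entry and *Mki67* is the usual label of dividing cells. The build, the length and the meaning of the capitals are as above. The window of *Cdk1* is chr10:69352883-69353132, that of *Ccnb2* is chr9:70421525-70421774 and that of *Mki67* is chr7:135716350-135716599, all on the minus strand.
Cdk1: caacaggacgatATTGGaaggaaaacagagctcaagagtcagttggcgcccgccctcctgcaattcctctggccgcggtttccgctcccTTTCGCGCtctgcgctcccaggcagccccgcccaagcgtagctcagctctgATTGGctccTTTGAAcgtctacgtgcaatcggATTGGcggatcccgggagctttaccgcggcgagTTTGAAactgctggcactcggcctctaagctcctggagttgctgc
Ccnb2: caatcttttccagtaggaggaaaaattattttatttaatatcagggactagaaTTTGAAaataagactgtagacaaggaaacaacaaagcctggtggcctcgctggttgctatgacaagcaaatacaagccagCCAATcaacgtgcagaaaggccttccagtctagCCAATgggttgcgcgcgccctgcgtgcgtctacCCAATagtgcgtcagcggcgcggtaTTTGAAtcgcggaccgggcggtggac
Mki67: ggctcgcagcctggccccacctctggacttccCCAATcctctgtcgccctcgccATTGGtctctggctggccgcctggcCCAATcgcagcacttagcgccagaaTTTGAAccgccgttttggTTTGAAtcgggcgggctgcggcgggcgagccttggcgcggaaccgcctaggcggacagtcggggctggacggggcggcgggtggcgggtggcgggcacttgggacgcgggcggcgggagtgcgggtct
Each of the 3 holds 3 CCAAT words and 2 CHR words, and *Cdk1* also holds an E2F word. A RefSeq window was found for 19 of the 24 replication genes and 13 of the 16 mitosis genes. *Mcm4*, *Gins1*, *Gins2*, *Rfc2*, *Ccne2*, *Ccna2*, *Aurkb* and *Kif20a* had no entry. In the full window of 300 bases a CHR word was held by 12 of 13 mitosis genes (92.3%), 4 of 19 replication genes (21.1%) and 21.7% of all 27025 genes with a window. An E2F word was held by 1 of 13 mitosis genes (7.69%), 8 of 19 replication genes (42.1%) and 2.6% of all. CCAAT was held by 92.3% of the mitosis genes, 57.9% of the replication genes and 41.1% of all. *Birc5* held none of the words in its window. In *Mcm5*, as in *Mcm6*, E2F words overlapped, and in *Cdca8* a CHR word overlapped a CCAAT. Counted by window and not by gene, 19.2% of 32851 windows held a CHR word, 2.26% an E2F word and 37.4% CCAAT. These matches are letters in a window and do not show that a factor binds there.

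**Figure D3:**
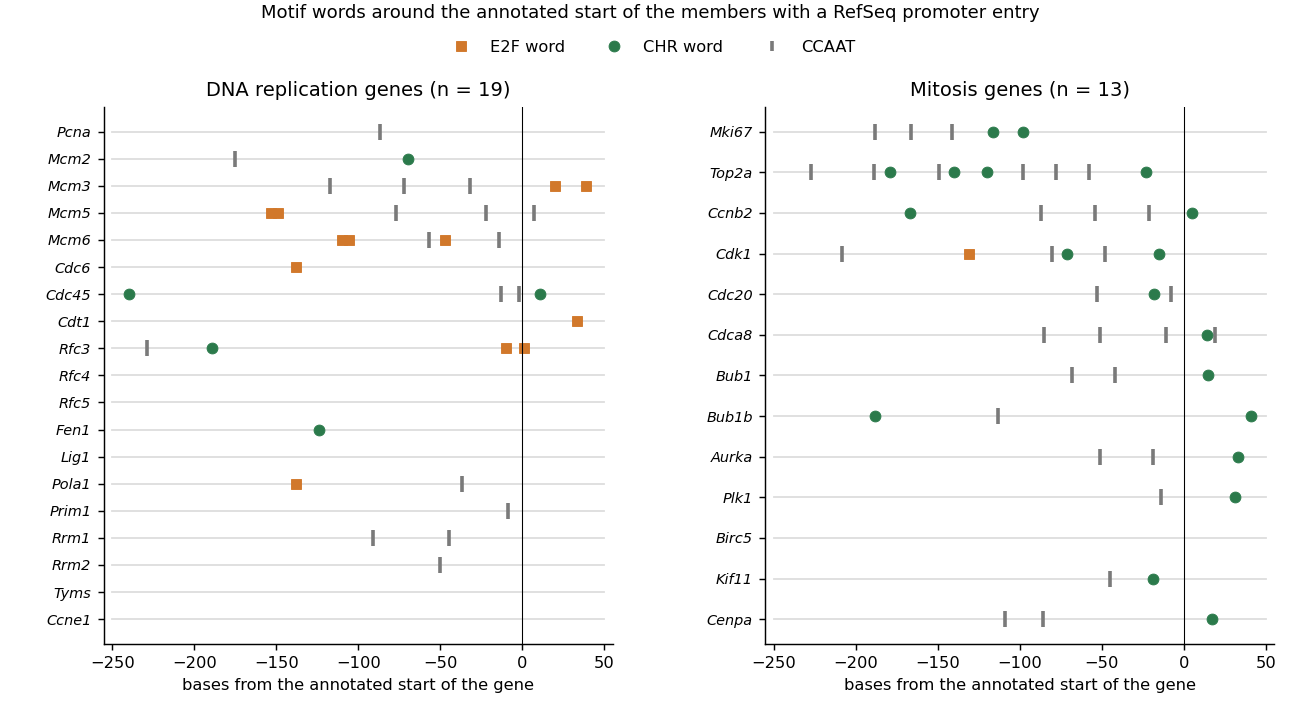
Position of E2F words (squares), CHR words (circles) and CCAAT (ticks) in bases from the annotated start, for the 19 replication genes (left) and 13 mitosis genes (right) with a RefSeq window. CHR words are drawn for 12 of 13 mitosis genes, and E2F words are mostly on the left. Only the first window of a gene is drawn, which leaves out an E2F word at another start of *Lig1*.

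Among the mitosis genes, the cyclins and their kinase lay furthest down. *Ccnb2*, a B cyclin that activates Cdk1 at the entry into mitosis, read 5.07, 5.44, 4.87 and 5.69 in Ad-Cre-mCherry myotubes, against 6.01, 6.64, 5.52 and 6.05 in Ad-mCherry myotubes. All Ad-Cre-mCherry arrays but replicate 4 lay below all Ad-mCherry arrays. The mean was 5.27 ± 0.37 with Ad-Cre-mCherry and 6.06 ± 0.46 with Ad-mCherry (SD, n = 4 arrays each), and the log2 fold change was -0.79 (standard error 0.27, 95% interval -1.40 to -0.18, adjusted p = 0.738 in limma, exact permutation p = 0.0571). With the replicate block the adjusted p was 0.105. *Ccnb2* passed both thresholds in 10 of 12 settings that left out arrays. It did not pass without replicate 1, at -0.74, or without replicate 2, at -0.65.

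*Ccna2*, the A cyclin of S phase and early mitosis, read 5.02, 5.46, 4.23 and 4.70 in Ad-Cre-mCherry myotubes, against 5.21, 5.82, 5.16 and 5.87 in Ad-mCherry myotubes. Ad-Cre-mCherry replicate 2 lay above replicates 1 and 3 of the Ad-mCherry group, and the other 3 Ad-Cre-mCherry arrays lay below all Ad-mCherry arrays. Its log2 fold change was -0.66 (standard error 0.29, 95% interval -1.32 to -0.01, adjusted p = 0.760 in limma, exact permutation p = 0.114). The call was lost when the values were normalized by quantiles again, centred on array medians, weighted by array or limited to brighter rows. It was lost as well without replicate 3 or 4 of both groups, without Ad-Cre-mCherry replicate 1, 3 or 4 and without Ad-mCherry replicate 2 or 4, where the log2 fold change lay between -0.72 and -0.46.

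*Cdk1*, the kinase that both cyclins activate, read 5.56, 5.27, 4.25 and 6.17 in Ad-Cre-mCherry myotubes, against 5.79, 6.88, 4.88 and 7.37 in Ad-mCherry myotubes. Replicate 4 was highest and replicate 3 lowest in both groups, the groups overlapped, and the Ad-Cre-mCherry array was the lower one in each of the 4 replicate numbers. The log2 fold change was -0.92 (standard error 0.57, 95% interval -2.20 to 0.37, adjusted p = 0.804 in limma, exact permutation p = 0.229). It passed both thresholds with the replicate block (adjusted p = 0.116) and without Ad-mCherry replicate 3, at -1.37. Leaving out Ad-mCherry replicate 4 gave -0.54, and leaving out Ad-Cre-mCherry replicate 3 gave -0.56, and neither passed.

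*Top2a*, the topoisomerase that untangles sister chromatids, read 4.23, 4.74, 4.13 and 4.46 in Ad-Cre-mCherry myotubes, against 4.04, 5.29, 4.59 and 5.58 in Ad-mCherry myotubes. Its lowest array was an Ad-mCherry one, replicate 1, and its log2 fold change of -0.48 (standard error 0.33, adjusted p = 0.825 in limma, exact permutation p = 0.286) passed both thresholds only without replicate 1 of both groups, at -0.71, or without Ad-mCherry replicate 1, at -0.76. It was -0.25 without Ad-mCherry replicate 4 and -0.27 without both arrays numbered 4. *Birc5*, or survivin, a subunit of the chromosomal passenger complex, read 5.60, 4.89, 4.33 and 5.15 in Ad-Cre-mCherry myotubes, against 5.35, 5.93, 4.76 and 5.96 in Ad-mCherry myotubes. It was lower in replicates 2, 3 and 4 and higher in replicate 1, with a log2 fold change of -0.51 (standard error 0.34, adjusted p = 0.822 in limma, exact permutation p = 0.257). It passed both thresholds with the replicate block, where its adjusted p was 0.332, and without Ad-mCherry replicate 3, at -0.75. Over the 12 settings that left out arrays it lay between -0.76 and -0.29, the last without Ad-Cre-mCherry replicate 3. The kinase *Aurkb* and *Cdca8*, which belong to that complex too, had log2 fold changes of -0.17 and -0.20.

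*Mki67*, whose protein coats mitotic chromosomes, read 3.46, 3.93, 3.23 and 4.38 in Ad-Cre-mCherry myotubes, against 2.82, 3.94, 3.31 and 5.60 in Ad-mCherry myotubes. Replicate 4 was highest in both groups, and the 2 values of replicate 2 and the 2 values of replicate 3 were nearly equal. The log2 fold change was -0.17 with a standard error of 0.55 (adjusted p = 0.970 in limma, exact permutation p = 0.83), and its sign turned in 3 settings, to 0.18 without both arrays numbered 4, to 0.39 without the Ad-mCherry array of replicate 4 alone and to 0.01 without the Ad-Cre-mCherry array of replicate 3. *Aurka*, the Aurora kinase of the spindle poles, was the highest of the mitosis genes by fold change. It read 5.20, 5.33, 4.72 and 5.21 in Ad-Cre-mCherry myotubes, against 4.91, 4.85, 4.92 and 4.74 in Ad-mCherry myotubes. Only Ad-Cre-mCherry replicate 3 lay below the Ad-mCherry arrays, and the log2 fold change was 0.26 (standard error 0.17, adjusted p = 0.822 in limma, exact permutation p = 0.143). It passed both thresholds only without that array, at 0.39, and lay between 0.19 and 0.41 over the settings that left out arrays.

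Of the checkpoint genes, the kinase *Bub1* was at -0.63 on the log2 scale (standard error 0.46) and did not pass both thresholds with all 8 arrays, but it did with the replicate block, where its adjusted p was 0.277, and in 1 of 12 settings that left out arrays. Its relative *Bub1b* had -0.04, and *Cdc20*, which starts anaphase, had 0.06. The mitotic kinase *Plk1* had -0.06, the spindle motors *Kif11* and *Kif20a* had -0.21 and -0.11, and the centromere histone *Cenpa* had 0.20 on the same scale. None of these passed both thresholds with all 8 arrays and no block. The signal of 9 of the 16 mitosis rows lay below the median gene of the arrays, as did that of 9 of the 24 replication rows, and no detection call was used that would say how far such rows lie above background.

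The replication and mitosis genes were then set against each other on each array, after each gene was centred on its own mean over the 8 arrays. The mean of the mitosis genes was -0.11, -0.13, -0.49 and 0.17 in Ad-Cre-mCherry myotubes, against -0.22, 0.38, -0.26 and 0.65 in Ad-mCherry myotubes. Ad-mCherry replicate 4 held the highest value for 9 of the 16 mitosis genes, and replicate 4 was the highest array of each group. The mean of the replication genes was 0.31, 0.12, -0.20 and -0.11 in Ad-Cre-mCherry myotubes, against -0.16, 0.21, -0.23 and 0.05 in Ad-mCherry myotubes. Here replicate 1 or 2 was the highest of its group, and the groups overlapped.

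The replication mean minus the mitosis mean was 0.42, 0.25, 0.29 and -0.28 in Ad-Cre-mCherry myotubes, against 0.06, -0.17, 0.03 and -0.60 in Ad-mCherry myotubes. In replicates 1, 2 and 3 with Cre it stood above all Ad-mCherry arrays, and Ad-Cre-mCherry replicate 4 lay below 3 of them. It averaged 0.17 ± 0.31 with Ad-Cre-mCherry and -0.17 ± 0.30 with Ad-mCherry (SD, n = 4 arrays each). Within the replicate numbers it was higher in the Ad-Cre-mCherry array by 0.36, 0.42, 0.26 and 0.32. By medians over the genes in place of means, these differences were 0.14, 0.25, 0.365 and 0.295 in replicates 1 to 4. The difference of the 2 median fold changes, replication minus mitosis, was 0.21, and it lay between 0.14 and 0.32 in the settings that left out arrays. No p is given for these means, since the genes were chosen with results of these arrays known.

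**Figure D4:**
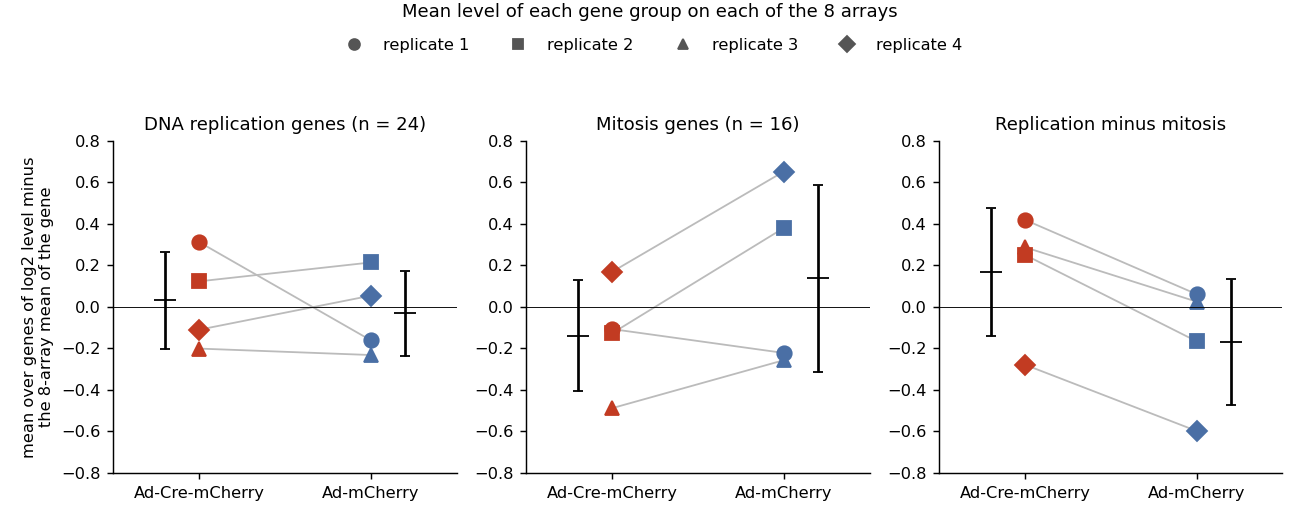
Mean over genes of the log2 level, each gene centred on its 8-array mean, for the 24 replication genes, the 16 mitosis genes and their difference, with Ad-Cre-mCherry left and Ad-mCherry right in each panel. Lines join arrays of the same replicate number, and black bars give the mean and SD of 4 arrays. The difference slopes down to Ad-mCherry in all 4 replicate numbers, by 0.36, 0.42, 0.26 and 0.32, while the groups overlap.

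The difference of the mitosis genes within a replicate number was not the same for all numbers. In replicate 1, 11 of the 16 were higher and 5 lower in the Ad-Cre-mCherry array, whereas 13, 14 and 14 of the 16 were lower in replicates 2, 3 and 4. The median difference was 0.15, -0.47, -0.17 and -0.41 on the log2 scale in replicates 1 to 4. Of the 24 replication genes, 16, 10, 16 and 11 were higher in the Ad-Cre-mCherry array of replicates 1 to 4. Lower in all 4 replicate numbers were 5 mitosis genes, *Ccna2*, *Ccnb2*, *Cdk1*, *Cdca8* and *Bub1*, and 3 replication genes, *Cdc45*, *Prim1* and *Tyms*, against 11.1% of all genes. Higher in all 4 were *Pcna*, *Rfc3*, *Rfc4* and *Rrm2* and 0 mitosis genes, against 9.88% of all genes. The map of these differences shows the largest differences upward in replicate 1.

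**Figure D5:**
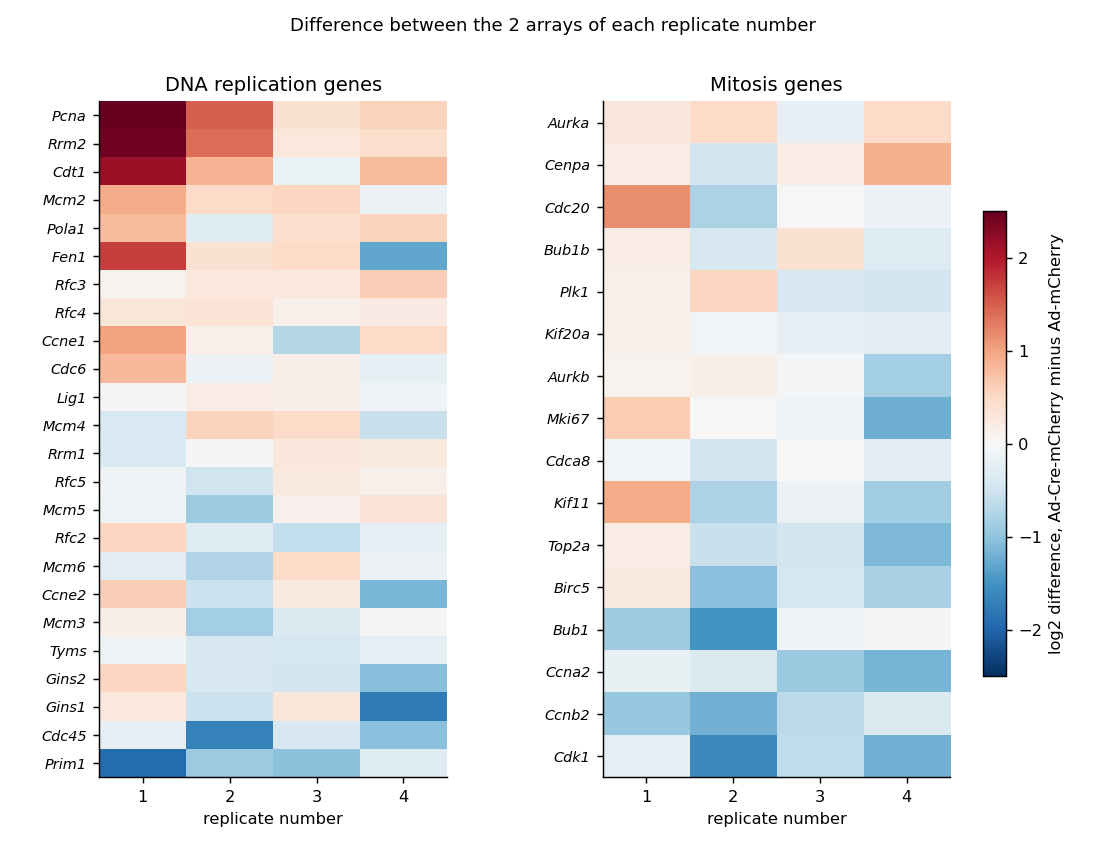
Log2 difference between the Ad-Cre-mCherry and the Ad-mCherry array of each replicate number, for the 24 replication genes (left) and the 16 mitosis genes (right), ordered by fold change. Red is higher and blue lower with Ad-Cre-mCherry. In replicate 1, *Pcna*, *Rrm2* and *Cdt1* are the darkest red and 11 of 16 mitosis genes are above 0, and in replicates 2, 3 and 4 most mitosis genes are below 0.

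Other genes of the same processes were read from lists that hold none of the 43. Of 40 other replication genes, 19 were higher and 21 lower, and their median was -0.01 on the log2 scale. Both thresholds were passed by 2 upward and 1 downward, against 2.92% and 3.50% of all genes. With the replicate block 4 passed upward and 3 downward, against 6.54% and 8.20% of all genes. *Pole3*, a histone-fold subunit of DNA polymerase epsilon, read 10.08, 9.77, 9.62 and 10.42 in Ad-Cre-mCherry myotubes, against 8.42, 8.65, 9.33 and 9.65 in Ad-mCherry myotubes. It overlapped only at Ad-mCherry replicate 4, and the log2 fold change was 0.96 (standard error 0.30). *Dnmt1*, the methyltransferase that copies DNA methylation onto new strands, was 0.54 higher (standard error 0.22), and *Orc4*, a subunit of the origin recognition complex, had -0.64 (standard error 0.27) on the log2 scale.

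Of 52 other mitosis genes, 18 were higher and 34 lower, and their median was -0.11 on the log2 scale. Of these genes, 36 had a signal below the median gene, and among the 16 left when dim rows were dropped, 9 were higher and 7 lower and the median was 0.14. Of all 52, none passed both thresholds upward and 2 downward, against 2.92% and 3.50% of all genes. The 2 were *Cdca3*, which takes part in mitotic entry, at -0.92 (standard error 0.37) and *Cdc25c*, a phosphatase that activates Cdk1, at -0.58 (standard error 0.20). With the replicate block 1 passed upward and 7 downward, against 6.54% and 8.20% of all genes. Upward this was *Pttg1*, or securin, which restrains the separation of sister chromatids, at 0.60 (standard error 0.23 with the block, 0.30 without it). The mean difference between other replication and other mitosis genes was -0.09, 0.32, 0.04 and 0.19 in replicates 1 to 4, so its sign was not the same in all 4. The difference of their medians was 0.005, 0.22, 0.10 and 0.08. A CHR word was held by 75.0% of the other mitosis genes with a window and 14.7% of the other replication genes. An E2F word was held by 13.6% of the other mitosis genes and 29.4% of the other replication genes.

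Regulators of the cycle were read next. Of 31, 13 were higher and 17 lower. Both thresholds were passed by 1 upward and 0 downward, against 2.92% and 3.50% of all genes. With the replicate block 3 passed upward and 5 downward, against 6.54% and 8.20% of all genes. *Cdkn2d*, an inhibitor of the D cyclin kinases, was the one that passed upward, at 0.81 on the log2 scale (standard error 0.33). *Cdkn2c*, a close relative, read 7.07, 8.05, 6.95 and 8.63 in Ad-Cre-mCherry myotubes, against 10.12, 8.47, 7.77 and 8.98 in Ad-mCherry myotubes, and its log2 fold change was -1.16 (standard error 0.53). It did not pass without the block. *Rb1*, the retinoblastoma protein that restrains E2F and holds myotube nuclei out of the cycle, had -0.90 (standard error 0.44) and passed with the block but not without it on all 8 arrays. *E2f3*, an E2F factor that acts at the start of S phase, has 2 rows, and the brighter one had -0.54 (standard error 0.27). That row likewise passed with the block but not without it on all 8 arrays. When rows that share a symbol were averaged, without the block, 1 of the 31 regulators passed downward. Without the block, between 0 and 3 of the 31 regulators passed downward in the other settings. *Cdkn1a*, the inhibitor that rises at the exit of myoblasts from the cycle, read 18.32, 18.37, 18.77 and 18.59 in Ad-Cre-mCherry myotubes, against 18.50, 18.47, 18.89 and 18.56 in Ad-mCherry myotubes, and its log2 fold change was -0.09 (standard error 0.17, adjusted p = 0.941 in limma).

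Markers of cell types were read beside these results, and their part in them was not tested. All 12 myotube markers were bright, with mean levels of 9.47 to 19.55 and a median of 17.36 on the log2 scale, and their summed level ran between 189.24 and 203.89 with Ad-Cre-mCherry and between 195.34 and 205.37 with Ad-mCherry. Of the 12, 2 were higher and 10 lower with Cre, with a median of -0.16 on the log2 scale. Both thresholds were passed by 0 upward and 2 downward, against 2.92% and 3.50% of all genes. With the replicate block 1 passed upward and 4 downward, against 6.54% and 8.20% of all genes. *Myog*, the transcription factor of myoblast differentiation, was 8.73 ± 0.48 with Ad-Cre-mCherry and 10.21 ± 0.48 with Ad-mCherry (SD, n = 4 arrays each), and *Myh3*, the embryonic myosin heavy chain, was 15.49 ± 0.47 with Ad-Cre-mCherry and 16.72 ± 0.29 with Ad-mCherry. These were the 2 that passed downward. Their groups did not overlap, which was so for 1.93% of all genes in the lower direction. With the replicate block both had an adjusted p of 0.04 in limma, where 0.323% of all genes were under 0.05. Of 10 markers of myoblasts and satellite cells, 3 were higher and 7 lower with Cre, and 1 passed both thresholds, *Calcr*, the calcitonin receptor of quiescent satellite cells, at -0.47 (standard error 0.19). With the block 7 passed, all downward, where 8.20% of all genes passed, and *Myf5* and *Myod1* were among the 7. The summed level of the list ran between 60.45 and 66.53 with Ad-Cre-mCherry and between 65.48 and 69.15 with Ad-mCherry. *Pax7*, the defining factor of satellite cells, lay between 3.70 and 4.03 with Ad-Cre-mCherry and between 3.45 and 3.84 with Ad-mCherry. No marker of fibroblasts (9 read), macrophages (7 read) or endothelial cells (6 read) passed with or without the block. The signal of 6 of the 9, 5 of the 7 and 6 of the 6 lay below the median gene, which limits what could be detected. The summed level of the fibroblast markers was 37.54 to 42.10 with Ad-Cre-mCherry and 37.29 to 45.62 with Ad-mCherry. That of the macrophage markers was 27.71 to 30.36 with Ad-Cre-mCherry and 27.45 to 30.06 with Ad-mCherry, and that of the endothelial markers 21.56 to 23.58 with Ad-Cre-mCherry and 21.12 to 22.43 with Ad-mCherry.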

How the data were processed

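RNA was measured on 8 arrays, and groups and replicate numbers were taken from the submitters' labels. The deposited values are log2 levels that the authors made with RMA in Affymetrix Expression Console, a method of background correction, quantile normalization and probe summary. No source used here gives their versions. The identifiers of the array rows do not belong to the Affymetrix design that the paper names. The labels give 4 replicates a group and the paper 3 cultures, and all 8 arrays were kept. The table has 22206 rows, of which 19572 pair with 1 symbol, 0 with several and 2634 with none. The brightest row of each symbol was kept, which left 19505 genes.

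The main test was the two-sided moderated test of limma 3.58.1 in R 4.3.3, without a block since the methods state none, with Benjamini-Hochberg adjustment over all genes. The script was tested on simulated data. Single genes also had an exact permutation test of 4 against 4 values over 70 permutations. Neither this test nor the standard errors and intervals given here use the replicate numbers, except the standard errors said to be with the block. Arrays with the same replicate number deviated together, with correlations of 0.561, 0.516, 0.623 and 0.557 after removal of the group means, against -0.424 to 0.128 for different numbers, so the numbers were taken to pair the arrays. No source used here says what a number stands for.

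The members, lists and tests were chosen with earlier results of these data known. Described in full are the 5 replication and 5 mitosis genes with the smallest p, the 2 largest fold changes of each, any gene without overlap of the groups, and *Pcna*, *Mcm2*, *Rrm2*, *Mki67*, *Top2a* and *Cdk1*, and from the other lists genes with the smallest p or the extreme levels. *Bub1*, *Fen1*, *Myf5*, *Myod1* and the genes given by range were named after their values were seen. Promoters are RefSeq windows of GRCm38.p6 from 250 bases before to 50 after each start. The alternatives tried were a block for the replicate number, a second quantile normalization, array centring, a filter on dim rows, averaging the rows that share a symbol, a trended and robust eBayes, array weights, and each array or replicate number left out.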

Additional observations from a re-analysis of the deposited data

Results flagged for a closer look

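In groups of 4 arrays, an array was marked where its gap to the next value exceeded the 95% limit of Dixon's test. Of 84 groups tested, 4 were marked, and chance marks about 1 in 20. *Mcm2* read 6.83 on Ad-mCherry replicate 4, next to 6.19. *Mcm6* read 6.56 on Ad-Cre-mCherry replicate 3, next to 5.91. *Fen1* read 6.41 on Ad-Cre-mCherry replicate 1, next to 4.72. *Tyms* read 8.41 on Ad-mCherry replicate 2, next to 7.44. All 4 were the highest of their group, on 4 different arrays.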

How the results depend on the processing

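The replicate block had the widest effect, with 63 genes past the adjusted threshold (20 higher, 43 lower), 2875 genes past the fold and unadjusted p thresholds and 10 of the 40 genes among them. With dim rows left out, 720 of 9754 genes passed, 3 of the 22 remaining replication and mitosis genes among them, and the median of the 7 mitosis genes left was -0.51. Leaving out arrays gave between 694 and 1540 genes past these thresholds, the lowest without replicate 2 and 775 without replicate 1, and between 3 and 7 of the 40, with 3 without replicate 2. No gene passed the adjusted threshold in these 12 settings. The median log2 fold change of the replication genes changed sign in them (-0.10 to 0.11), whereas that of the mitosis genes lay between -0.38 and -0.04, the weakest without replicate 4. *Mki67* ranged between -0.53 and 0.39 over them and turned to 0.18 without both arrays numbered 4, 0.39 without Ad-mCherry replicate 4 alone and 0.01 when Ad-Cre-mCherry replicate 3 was left out. Causes were not tested. With the block, 4 of the 13 genes described in full passed both thresholds beside those that passed without it, and none was lost. The trend and robust settings and the mean of all rows changed the call of none of the 13. The small number of arrays and the dim signal of many mitosis rows limit what could be detected.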
